A study of Mus musculus with 23 samples.

Results

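The genes described here encode the proteasome, the protease that degrades ubiquitin-tagged proteins, measured by RNA sequencing of mouse liver. Members were the genes whose symbols begin with Psma, Psmb, Psmc, Psmd, Psme, Psmf or Psmg and a digit, with at least 10 counted reads in at least 5 of 23 libraries. Of the 50 matching symbols, the interferon-induced Psmb8 and Psmb9 were left out by rule and Psmb11 for its counts of at most 4 reads in any library, which left 47 members among 24062 genes. Livers came from mice of a mixed B6/129 background that were either knockout (KO) for Ehhadh, the peroxisomal L-bifunctional enzyme of fatty acid oxidation, or wild type (WT). Each mouse had received L-AC, which the labels give only as an abbreviation, or saline. The groups were 5 KO mice given L-AC (28 to 38 weeks old), 6 WT mice given L-AC (28 to 44 weeks), 5 KO mice given saline (31 to 44 weeks) and 7 WT mice given saline (29 to 45 weeks). As background, L-aminocarnitine, for which the abbreviation may stand, blocks carnitine palmitoyltransferase 2, an enzyme of mitochondrial uptake of long-chain fatty acids. Dose, duration and the deleted part of Ehhadh are not given in the sources used here.

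As background, the 26S proteasome joins a 20S core, a barrel of alpha and beta rings that holds the protease sites, to a 19S regulatory particle, which recognises, unfolds and feeds in ubiquitin-tagged substrates. The core has caspase-like (Psmb6), trypsin-like (Psmb7) and chymotrypsin-like (Psmb5) sites, and cytokines such as interferon gamma induce Psmb9, Psmb10 and Psmb8, which take the places of those subunits in the immunoproteasome. Other activators can cap the core, among them the cytokine-induced PA28 alpha and beta (Psme1 and Psme2). When proteasome activity falls short, the transcription factor Nfe2l1 (NRF1) is known to raise transcription of many proteasome subunit genes together.

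Libraries held 24521896 to 48095959 counted reads, and levels are given as CPM, the usual scaled count, over the TMM-scaled library size. Ehhadh, the check of the genotype, had 1421 to 2144 CPM in KO livers given L-AC and 10260 to 14650 CPM in WT livers given L-AC. With saline it had 90.9 to 253 CPM in KO livers and 635 to 1635 CPM in WT livers. Its ranges in the genotypes did not overlap under either treatment. WT saline replicate 1 lay nearer to the L-AC livers than the other saline livers on the first principal component (55.2% of the variance), and the counts of proteasome genes called in WT and in KO were the same without it. The hepatocyte markers Alb, Apoa1, Ttr, Hnf4a, Cps1 and Tat were all detected. With L-AC against saline, 0 of these 6 were called higher and 3 lower (Alb, Ttr and Hnf4a) in KO. In WT, 1 was called higher (Tat) and 2 lower (Alb and Ttr). Of all genes tested, 25.2% were called higher and 23.6% lower in KO, and 26.6% and 26.7% in WT. In bulk liver, fewer cells of a type and less RNA per cell cannot be told apart.

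Most 26S subunit genes were higher with L-AC in both genotypes, whereas the cytokine-inducible members were lower. In KO livers, 32 of the 47 members were higher with L-AC than with saline, 5 were lower and 10 passed in neither direction (edgeR quasi-likelihood test, Benjamini-Hochberg adjusted p under 0.05 over 14196 genes). Across all genes tested in that comparison, 25.2% were called higher and 23.6% lower. In WT livers the counts were also 32 higher, 5 lower and 10 neither, beside 26.6% of all genes called higher and 26.7% lower. The members' median log2 fold change was 0.41 in KO and 0.27 in WT, against -0.005 and -0.009 over all genes. In KO, the libraries of the treatments did not overlap for 30 members that were higher with L-AC (17.1% of all genes) and 3 that were lower (15.5%). In WT they did not overlap for 19 higher (12% of all genes) and 2 lower (12.1%). Summed over the 47 members, transcripts made up 4969 ± 225 CPM in KO livers given L-AC (SD, n = 5) and 3513 ± 122 CPM in KO livers given saline (n = 5). The same sum was 4864 ± 344 CPM in WT livers given L-AC (n = 6) and 3718 ± 111 CPM in WT livers given saline (n = 7).

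Most called members were called in both genotypes: 30 were higher in both, 4 were lower in both (Psmb10, Psme1, Psme2 and Psme2b) and 0 were called in opposite directions. The share of all genes called in both genotypes was not counted, so these counts do not set the members apart from other genes. Psmb3, a structural subunit of the beta ring, and Psmc5, an ATPase, passed as higher in KO and missed the threshold in WT. The core chaperone Psmg4 and the activator Psme4 passed as higher in WT and missed it in KO. Among the lower members, the core chaperone Psmg1 passed in KO and Psmg3 in WT. Neither comparison called Psma8, Psmb1, Psmb6, Psmb7, Psmd5, Psmd10 or Psmc3ip.

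**Figure D1:**
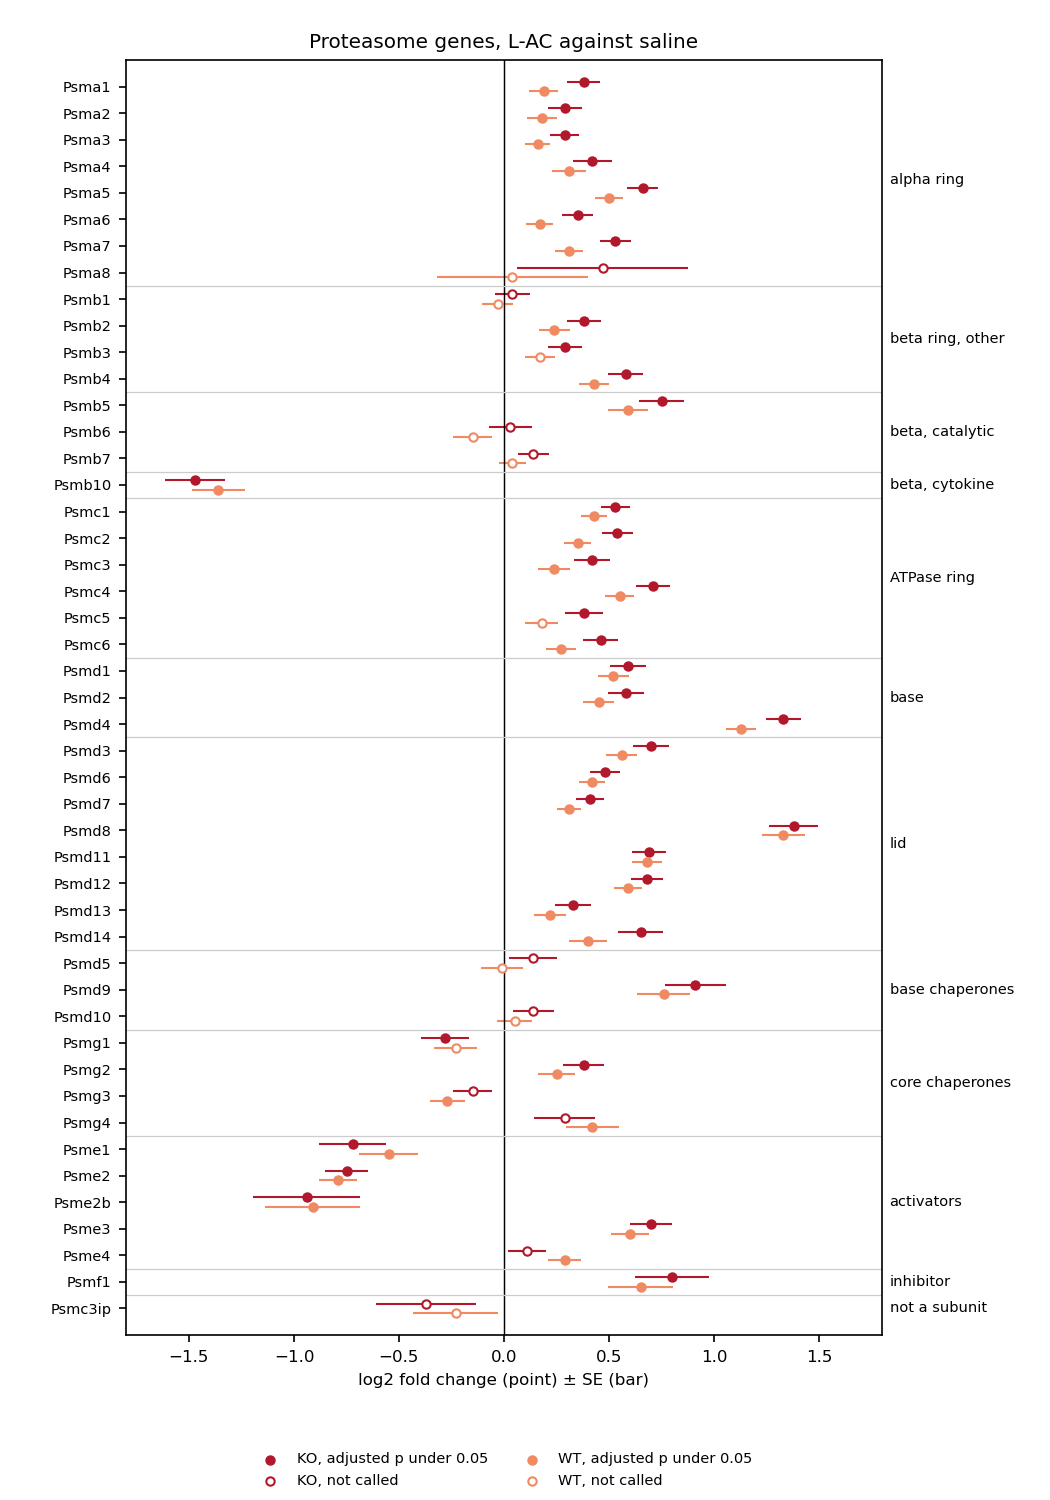
Log2 fold change of L-AC against saline for each of the 47 members (points) with its SE (bars), in KO and WT livers, grouped by role; filled points passed an adjusted p of 0.05. Points of the 19S groups lie right of 0, with Psmd4 and Psmd8 farthest right, and Psmb10, Psme1, Psme2 and Psme2b lie left of it.

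The largest rises were in the 19S regulatory particle, where 17 of the 17 subunit genes among the members were called higher in KO (median log2 fold change 0.58) and 16 of 17 in WT (median 0.43). Beside these counts, 25.2% of all genes tested were called higher in KO and 26.6% in WT. The 19S subunit genes Adrm1 and Shfm1, which the symbols leave out, are described with the partners. Psmd4 encodes the ubiquitin receptor Rpn10 at the base of the particle and lies at chr3:95032691-95042614 (mm10, minus strand, 10 exons). Psmd4 had 320.1, 274, 263, 270.4 and 292 CPM in the 5 KO livers given L-AC, against 115, 121, 116, 104 and 109.5 CPM in the 5 given saline. In WT, its levels were 229 to 298 CPM with a median of 283 in the 6 WT livers given L-AC, against 113 to 145 CPM with a median of 128 in the 7 given saline. All L-AC libraries of either genotype lay above all saline libraries. The log2 fold change of Psmd4 was 1.33 (SE 0.083, adjusted p = 1.3e-10) in KO and 1.13 (SE 0.072, adjusted p = 7.07e-11) in WT, or 2.51-fold and 2.18-fold.

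Psmd8, at chr7:29174187-29180673 (minus strand, 7 exons), encodes the lid subunit Rpn12. It had 226, 238, 303, 217 and 372 CPM in the 5 KO livers given L-AC, against 103, 114.5, 99, 112 and 94.6 CPM in the 5 given saline. Among KO livers given L-AC, replicates 3 and 5 were higher than the rest, and none came near the saline range. WT livers showed 240.4 to 287 CPM with a median of 269 in the 6 WT livers given L-AC, against 99.1 to 120 CPM with a median of 104 in the 7 given saline, again with no overlap. Its log2 fold change was 1.38 (SE 0.12, adjusted p = 5.53e-09) in KO and 1.33 (SE 0.1, adjusted p = 7.05e-10) in WT, or 2.59-fold and 2.51-fold. No other member rose by as much on the log2 scale as Psmd4 and Psmd8: the next was Psmd9, at 0.91 in KO and 0.76 in WT.

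The other lid genes rose by less, and all 8 lid genes among the members were called higher in both genotypes. The share of all genes called higher was 25.2% in KO and 26.6% in WT. Psmd11 and Psmd12 encode the scaffold subunits Rpn6 and Rpn5. Psmd11 had 172, 153, 168, 158 and 176 CPM in the 5 KO livers given L-AC, against 101, 103, 105, 92.7 and 111 CPM in the 5 given saline. In WT, Psmd11 had 149 to 189 CPM with a median of 169.7 in the 6 WT livers given L-AC, against 85.9 to 111 CPM with a median of 108 in the 7 given saline. Its libraries separated by treatment in both genotypes, with a log2 fold change of 0.69 (SE 0.08, adjusted p = 4.07e-07) in KO and 0.68 (SE 0.07, adjusted p = 5.35e-08) in WT. Psmd12 had 128, 129, 133, 131 and 141 CPM in the 5 KO livers given L-AC, against 89.7, 80.2, 79.5, 76.2 and 87 CPM in the 5 given saline. In WT, Psmd12 had 114 to 146 CPM with a median of 136.5 in the 6 WT livers given L-AC, against 81 to 98.3 CPM with a median of 89.3 in the 7 given saline. These ranges did not overlap either, and its log2 fold change was 0.68 (SE 0.075, adjusted p = 1.81e-07) in KO and 0.59 (SE 0.065, adjusted p = 1.71e-07) in WT. Psmd14, which encodes the deubiquitinase Rpn11 that removes the chain from a substrate, rose by 0.65 in KO and 0.40 in WT. The lid genes that rose least were Psmd13, by 0.33 and 0.22, and Psmd7, the partner of Rpn11, by 0.41 and 0.31.

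Genes of the ATPase ring, the motor that unfolds substrates, also rose. In KO all 6 were called higher, with log2 fold changes from 0.38 (Psmc5) to 0.71 (Psmc4). In WT 5 of 6 were called, and Psmc5 missed the threshold at 0.18 (SE 0.079, adjusted p = 0.0517). Across all genes, 25.2% were called higher in KO and 26.6% in WT. Psmc2 had 131, 126, 121, 115 and 114 CPM in the 5 KO livers given L-AC, against 93.1, 79.6, 78.2, 77.8 and 87.6 CPM in the 5 given saline. In WT, Psmc2 had 104 to 124 CPM with a median of 118 in the 6 WT livers given L-AC, against 83.1 to 96.8 CPM with a median of 92.3 in the 7 given saline. The libraries of the treatments were apart in both genotypes for Psmc2, and its log2 fold change was 0.54 (SE 0.074, adjusted p = 3.4e-06) in KO and 0.35 (SE 0.065, adjusted p = 0.000107) in WT. The large base scaffolds Psmd1 and Psmd2 rose by 0.59 and 0.58 in KO and by 0.52 and 0.45 in WT.

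In the 20S core, 11 of 14 constitutive subunit genes were called higher in KO (median log2 fold change 0.36) and 10 of 14 in WT (median 0.18). The shares of all genes called higher were 25.2% in KO and 26.6% in WT. All 7 alpha subunits of liver were called higher in both genotypes, and the testis form Psma8, at 4 to 64 reads per library, did not pass. In WT the libraries of the treatments overlapped for Psma1, Psma2, Psma3, Psma4 and Psma6, with log2 fold changes from 0.16 to 0.31. In KO the libraries of these genes did not overlap. Among the alpha subunits of liver, Psma5 rose most. It had 116, 104, 92.9, 94.9 and 96.9 CPM in the 5 KO livers given L-AC, against 70.2, 63.9, 60.9, 58.9 and 65 CPM in the 5 given saline. In WT, Psma5 had 87 to 109 CPM with a median of 95.3 in the 6 WT livers given L-AC, against 63.7 to 73 CPM with a median of 67.2 in the 7 given saline. The treatments did not overlap, and the log2 fold change of Psma5 was 0.66 (SE 0.075, adjusted p = 2.75e-07) in KO and 0.50 (SE 0.065, adjusted p = 1.42e-06) in WT. In the beta ring, Psmb4 rose by 0.58 and 0.43 and Psmb2 by 0.38 and 0.24 in KO and WT, while Psmb1 had log2 fold changes of 0.04 and -0.03 and was not called.

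Of the 3 constitutive catalytic genes, Psmb5 was called higher, and Psmb6 and Psmb7 were not called. Psmb5 (chr14:54614120-54617995, minus strand, 3 exons) had 187, 193, 129, 163 and 166 CPM in the 5 KO livers given L-AC, against 104.5, 97.1, 92, 104 and 102 CPM in the 5 given saline. In WT, Psmb5 had 118 to 186 CPM with a median of 155 in the 6 WT livers given L-AC, against 95.3 to 113 CPM with a median of 103 in the 7 given saline. No library given L-AC fell within the saline range, and the log2 fold change was 0.75 (SE 0.11, adjusted p = 7.11e-06) in KO and 0.59 (SE 0.095, adjusted p = 2.04e-05) in WT. Of its 871 exonic bases 109 overlap Mir686, and the authors' counting assigned such reads to both genes.

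Psmb6 (chr11:70525357-70527858, plus strand, 6 exons) had 114, 141, 96.1, 112 and 93.2 CPM in the 5 KO livers given L-AC, against 113, 110.5, 106, 112 and 104 CPM in the 5 given saline. In WT, Psmb6 had 84.4 to 119 CPM with a median of 104 in the 6 WT livers given L-AC, against 106 to 122 CPM with a median of 109 in the 7 given saline. The libraries overlapped, with L-AC libraries both above and below the saline range in KO and partly below it in WT, and the log2 fold change was 0.03 (SE 0.1, adjusted p = 0.827) in KO and -0.15 (SE 0.091, adjusted p = 0.157) in WT. Psmb7 (chr2:38588046-38643906, minus strand, 8 exons) had 122.5, 139, 110.4, 129 and 118 CPM in the 5 KO livers given L-AC, against 121, 109, 105.5, 112 and 115 CPM in the 5 given saline. In WT, Psmb7 had 106 to 131 CPM with a median of 124 in the 6 WT livers given L-AC, against 110.3 to 121 CPM with a median of 117 in the 7 given saline. It overlapped likewise, with a log2 fold change of 0.14 (SE 0.072, adjusted p = 0.116) in KO and 0.04 (SE 0.063, adjusted p = 0.634) in WT. Per kilobase of exon (RPKM), the level of Psmb5 was 1.6 to 2.12 times that of Psmb6 in KO livers given L-AC and 1.03 to 1.16 times in KO livers given saline. In WT livers it was 1.6 to 2.28 times with L-AC and 0.979 to 1.18 times with saline. This ratio does not depend on how libraries were scaled, and its ranges did not overlap between the treatments.

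**Figure D2:**
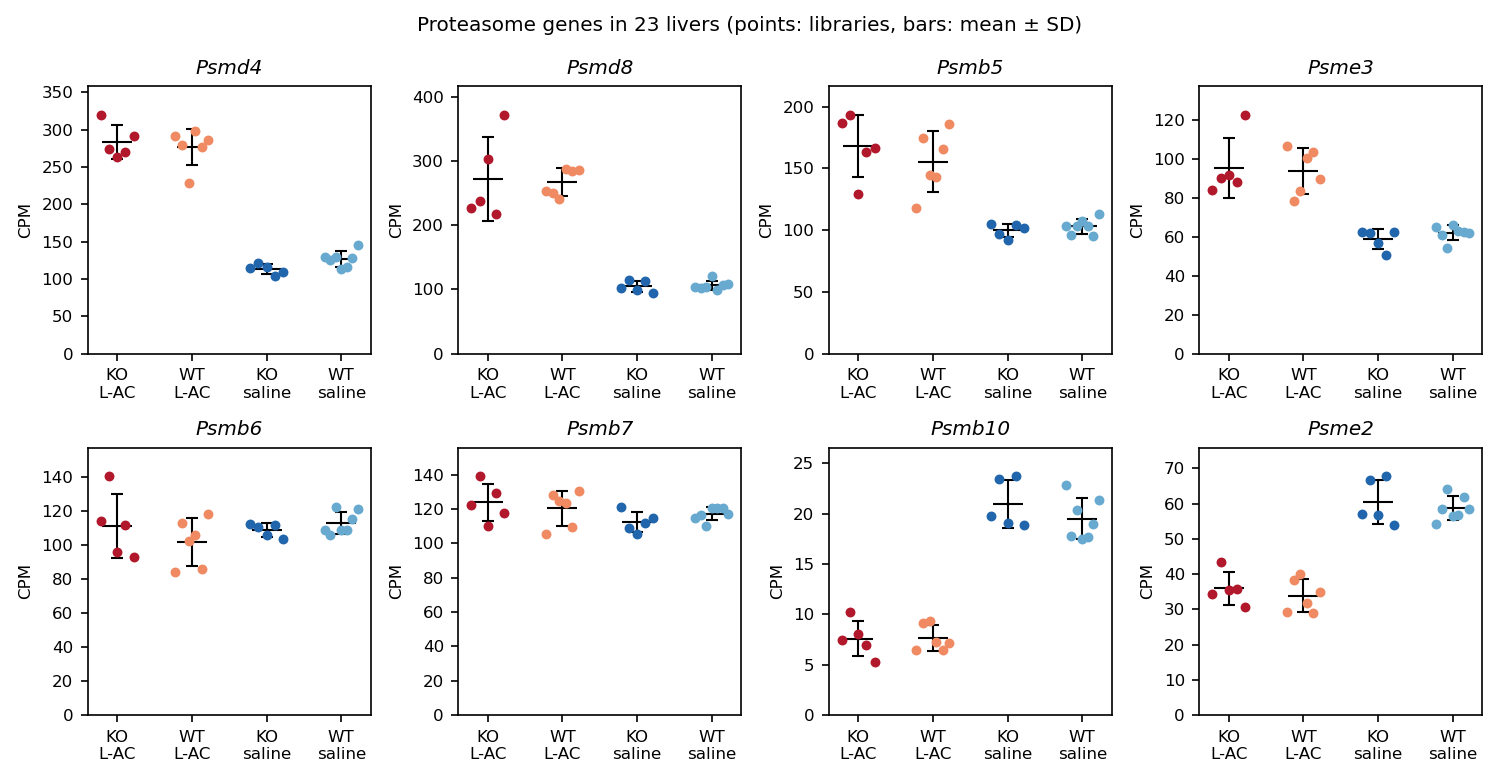
Levels (CPM) of 8 members in each of the 23 livers by genotype and treatment; points are libraries and bars the mean ± SD. Psmd4, Psmd8, Psmb5 and Psme3 sit higher with L-AC, Psmb6 and Psmb7 overlap between treatments, and Psmb10 and Psme2 sit lower with L-AC.

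Promoter sequences are shown for the catalytic pair that moved unlike, Psmb5 and Psmb6, for the most raised subunits Psmd4 and Psmd8, and for the raised chaperone Psmd9. Each is the 150 bases before the gene's start in RefSeq on GRCm38.p6, 5′ to 3′ on the gene's strand, with matches in capitals. The windows are chr14:54617996-54618145 (minus strand), chr11:70525207-70525356 (plus), chr5:123228040-123228189 (plus), chr3:95042615-95042764 (minus) and chr7:29180674-29180823 (minus).
Psmb5: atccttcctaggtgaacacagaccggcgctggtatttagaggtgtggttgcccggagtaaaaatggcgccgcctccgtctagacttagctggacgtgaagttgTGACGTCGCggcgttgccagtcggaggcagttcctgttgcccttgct
Psmb6: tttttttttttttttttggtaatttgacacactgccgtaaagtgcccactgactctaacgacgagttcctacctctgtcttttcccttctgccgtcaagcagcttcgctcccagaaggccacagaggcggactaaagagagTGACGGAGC
Psmd9: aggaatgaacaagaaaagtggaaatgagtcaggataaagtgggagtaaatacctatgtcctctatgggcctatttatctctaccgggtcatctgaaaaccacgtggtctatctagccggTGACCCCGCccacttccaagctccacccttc
Psmd4: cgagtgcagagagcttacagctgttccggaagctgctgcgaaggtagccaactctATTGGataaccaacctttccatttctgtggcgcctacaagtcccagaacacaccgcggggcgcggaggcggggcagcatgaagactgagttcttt
Psmd8: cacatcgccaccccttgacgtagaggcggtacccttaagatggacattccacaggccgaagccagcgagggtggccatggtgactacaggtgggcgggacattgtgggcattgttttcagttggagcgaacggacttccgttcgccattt
Capitals mark TGACNNNGC, the core letters of an antioxidant response element, in Psmb5, Psmb6 and Psmd9, and CCAAT read on the opposite strand in Psmd4. Both motifs were searched on both strands, and no member held both. The match lies 47 bases before the start in Psmb5, 31 in Psmd9 and 9 in Psmb6, counted to its first base, and Psmd8 holds neither motif. The 39 members with a RefSeq window had 42 windows, and a member counted if any of its windows held the motif. By this count 3 members held TGACNNNGC (7.69%), against 6.8% of 32851 single windows of the same length. CCAAT was in 10 of 39 members (25.6%), among them Psmc3ip, which is not a subunit, against 24.5% of all windows. Members held either motif at about the share of all windows. Psma8, Psmb1, Psmb2, Psmb7, Psmc3, Psmd3, Psmd7 and Psmg2 had no window in the table used. Psmb6, whose level was not called different, and Psmb5, which rose, both carry the element core. Whether either site is used in these livers was not tested.

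The inducible catalytic subunit Psmb10, which replaces Psmb7, fell most of all members. Psmb10 (chr8:105935728-105938392, minus strand, 8 exons) had 7.47, 10.2, 8.08, 6.93 and 5.31 CPM in the 5 KO livers given L-AC, against 19.8, 23.4, 19.1, 23.7 and 18.9 CPM in the 5 given saline. In WT, Psmb10 had 6.44 to 9.33 CPM with a median of 7.16 in the 6 WT livers given L-AC, against 17.5 to 22.8 CPM with a median of 19 in the 7 given saline. The highest L-AC library of either genotype lay below the lowest saline library. Its log2 fold change was -1.47 (SE 0.14, adjusted p = 3.33e-08) in KO and -1.36 (SE 0.13, adjusted p = 1.11e-08) in WT, or 2.76-fold and 2.56-fold lower. As a share of the summed RPKM of Psmb10 and Psmb7, Psmb10 took 3.33 to 5.29% in KO livers given L-AC and 11.1 to 14.1% in KO livers given saline. In WT livers the share was 3.98 to 5.41% with L-AC and 9.96 to 13.2% with saline.

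The excluded immunoproteasome genes moved the same way. Psmb8, which replaces Psmb5, had a log2 fold change of -1.04 (SE 0.17, adjusted p = 2.02e-05) in KO and -0.99 (SE 0.14, adjusted p = 7.01e-06) in WT. Psmb9, which replaces Psmb6, had -1.31 (SE 0.29, adjusted p = 0.000898) in KO and -1.23 (SE 0.26, adjusted p = 0.000397) in WT. Among all genes tested, 25.2% were called higher and 23.6% lower in KO, and 26.6% and 26.7% in WT. In the list of inducible proteasome and peptide-loading genes, 0 of 7 were called higher and 4 lower in KO, and 1 higher and 4 lower in WT. The lower ones besides Psmb8 and Psmb9 were the interferon pathway factor Irf1 (-1.30 in KO and -1.31 in WT) and the peptide-loading factor Tapbp (-0.60 and -0.60). The gene called higher in WT was Nlrc5, an activator of MHC class I genes, at 0.48, and it is named after its value was seen.

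Activator genes split by kind. Psme1 and Psme2, the subunits of cytokine-induced PA28, fell in both genotypes. Psme1 had 43.6, 66.6, 43.4, 53.9 and 41.3 CPM in the 5 KO livers given L-AC, against 78.7, 83, 79.99, 97.2 and 69.4 CPM in the 5 given saline. In WT, Psme1 had 35.6 to 68.6 CPM with a median of 51 in the 6 WT livers given L-AC, against 62.5 to 90.5 CPM with a median of 74.9 in the 7 given saline. The KO libraries did not overlap and the WT libraries did, and its log2 fold change was -0.72 (SE 0.16, adjusted p = 0.000797) in KO and -0.55 (SE 0.14, adjusted p = 0.00218) in WT. Psme2 had 34.4, 43.6, 35.5, 35.9 and 30.8 CPM in the 5 KO livers given L-AC, against 57, 66.7, 56.9, 67.8 and 54 CPM in the 5 given saline. In WT, Psme2 had 28.9 to 40.1 CPM with a median of 33.4 in the 6 WT livers given L-AC, against 54.3 to 64.2 CPM with a median of 58.5 in the 7 given saline. Neither genotype's libraries overlapped, with a log2 fold change of -0.75 (SE 0.1, adjusted p = 2.87e-06) in KO and -0.79 (SE 0.089, adjusted p = 2.06e-07) in WT.

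Psme2b is a single-exon gene on chromosome 11 that resembles Psme2, so reads of either gene can be counted for the other and its counts are uncertain. It also shares 261 of its 1059 exonic bases with 9930111J21Rik1, and Psme2b averaged 1.70 CPM over all libraries, against 0.0665 CPM for 9930111J21Rik1. Psme2b had 1.09, 1.66, 1.24, 1.47 and 0.864 CPM in the 5 KO livers given L-AC, against 2.22, 3.48, 1.64, 3.24 and 1.65 CPM in the 5 given saline. In WT, Psme2b had 0.771 to 1.62 CPM with a median of 0.99 in the 6 WT livers given L-AC, against 1.48 to 2.72 CPM with a median of 1.97 in the 7 given saline. Its libraries overlapped slightly in both genotypes, and the log2 fold change was -0.94 (SE 0.26, adjusted p = 0.004) in KO and -0.91 (SE 0.23, adjusted p = 0.00176) in WT. Psme3, the nuclear activator PA28 gamma, rose instead, by 0.70 (SE 0.1, adjusted p = 7.83e-06) in KO and 0.60 (SE 0.089, adjusted p = 8.31e-06) in WT, and was plotted after its values were seen. Psme4 (PA200), another nuclear activator, had 0.11 (SE 0.089, adjusted p = 0.329) in KO, which was not called, and 0.29 (SE 0.079, adjusted p = 0.00355) in WT. Psmf1, the proteasome inhibitor PI31, rose by 0.80 in KO and 0.65 in WT.

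Most immune cell markers that were called were lower with L-AC, and 1 of each list was higher. Of all genes tested, 25.2% were called higher and 23.6% lower in KO, and 26.6% and 26.7% in WT. Of the leukocyte markers Ptprc, Cd3e, Cd79a, Nkg7, Itgax and Cd52, 5 were tested. In KO, 1 was called higher (Cd3e) and 2 lower (Ptprc and Cd52). In WT, 1 was higher (Cd3e) and 4 lower (Ptprc, Cd79a, Itgax and Cd52). Cd3e was near the floor, with group means of 0.529 CPM with L-AC and 0.255 with saline in KO, and 0.729 and 0.256 in WT. The summed level of the leukocyte markers was 3.003 to 8.629 CPM in KO livers given L-AC and 5.993 to 13.29 CPM in KO livers given saline. It was 3.576 to 8.081 CPM in WT livers given L-AC and 5.503 to 12.86 CPM in WT livers given saline. These sums overlapped between the treatments in both genotypes. The 6 Kupffer cell and macrophage markers were Emr1 (Adgre1), Clec4f, Csf1r, Cd68, Vsig4 and Marco. In KO, 1 was higher (Cd68) and 3 lower (Emr1, Csf1r and Vsig4). In WT, 1 was higher (Cd68) and 4 lower (Emr1, Clec4f, Csf1r and Vsig4). The sum of all 6 macrophage markers was 32.57 to 120.3 CPM in KO livers given L-AC and 60.6 to 109.4 CPM in KO livers given saline. It was 38.36 to 69.75 CPM in WT livers given L-AC and 43.67 to 156.5 CPM in WT livers given saline. The KO ranges overlapped through KO L-AC replicate 3 alone, whose Cd68 level was 66.04 CPM where the other 4 had 7.29 to 17.9 CPM. Without it, the sum was 32.57 to 60.32 CPM in KO livers given L-AC, and the log2 fold change of Cd68 in KO was 1.30 (adjusted p = 0.00186) in place of 2.27. No marker of either list was at 0 in all libraries of a group. The part of these cells in the lower Psmb10, Psme1, Psme2, Psmb8 and Psmb9 was not tested.

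**Figure D3:**
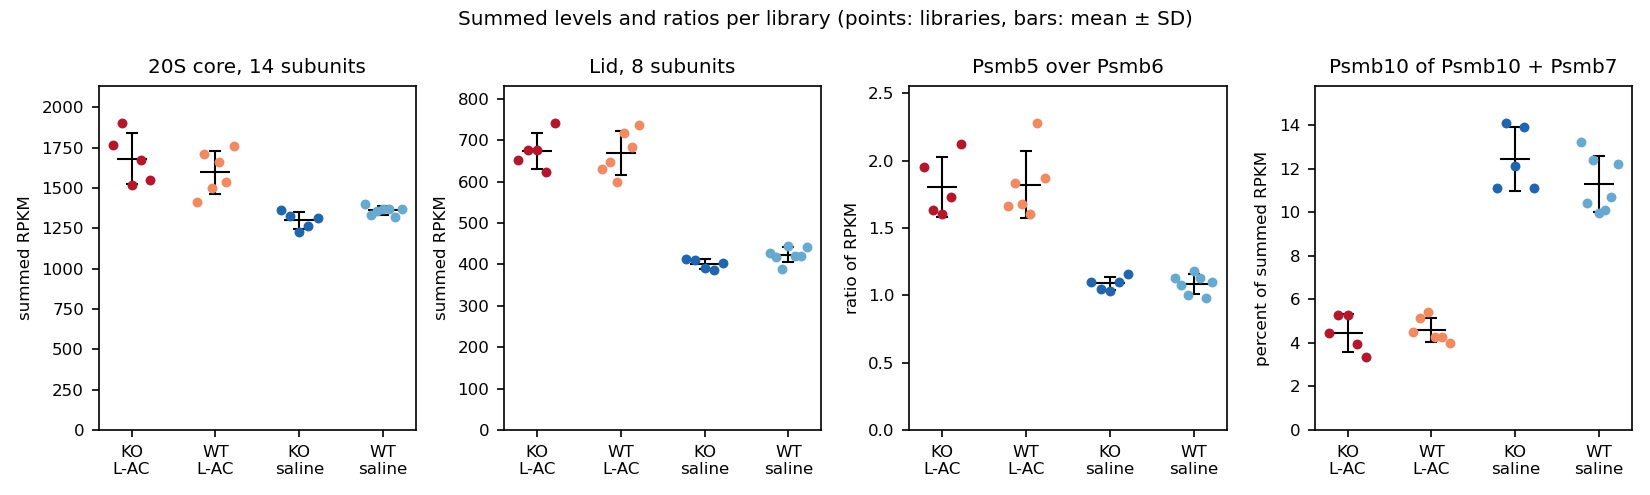
Per library, the summed RPKM of 14 core and of 8 lid genes, the ratio of Psmb5 to Psmb6 and the percent of Psmb10 in Psmb10 plus Psmb7; points are livers and bars the mean ± SD. All 4 measures separate the L-AC livers from the saline livers, the core sum by the least, with 1412 RPKM in the lowest L-AC liver and 1403 RPKM in the highest saline liver.

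The median log2 fold change was larger for 19S genes than for core genes in both genotypes. The balance of transcripts is given here per library for the lid, a part of the 19S particle, against the core. The 8 lid genes summed to 674.1 ± 44 RPKM in KO livers given L-AC and 401.5 ± 11.9 RPKM in KO livers given saline (SD, n = 5 each). In WT livers they summed to 668.7 ± 52.5 RPKM with L-AC (n = 6) and 423.2 ± 18.7 RPKM with saline (n = 7). All L-AC livers had more lid transcript than all saline livers. Psmd8 alone averaged 179.3 RPKM of the lid sum with L-AC and 69.1 with saline in KO, and 176.4 and 70.2 in WT. The 14 constitutive core genes summed to 1682 ± 159 RPKM in KO livers given L-AC and 1298 ± 52.9 RPKM in KO livers given saline. In WT livers the core sum was 1597 ± 135 RPKM with L-AC and 1361 ± 27.3 RPKM with saline. In proportion, the core sums differed less between the treatments than the lid sums. The lid sum divided by the core sum was 0.356 to 0.479 in KO livers given L-AC and 0.304 to 0.318 in KO livers given saline. It was 0.379 to 0.446 in WT livers given L-AC and 0.285 to 0.324 in WT livers given saline. These ranges were apart for the lid, which is a description of transcript balance and not of assembled complexes. For the 6 genes of the ATPase ring, another part of the 19S particle, the ranges over the core sum overlapped in WT. Their sum was 536.4 RPKM beside a core sum of 1709 in WT L-AC replicate 2. In WT saline replicate 7 it was 433.5 beside 1369.

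Assembly chaperones moved in both directions. Of 7 chaperone genes, 2 were called higher and 1 lower in KO, and 3 higher and 1 lower in WT. For so few genes these counts are near the shares of all genes tested. Those shares were 25.2% higher and 23.6% lower in KO, and 26.6% and 26.7% in WT. Psmd9 (p27), a chaperone of the ATPase base, rose by 0.91 (SE 0.14, adjusted p = 2.31e-05) in KO and 0.76 (SE 0.13, adjusted p = 3.24e-05) in WT. The other base chaperones, Psmd5 and Psmd10 (gankyrin), had log2 fold changes of 0.14 and 0.14 in KO and -0.01 and 0.05 in WT and were not called. Among chaperones of the core, Psmg2 rose by 0.38 in KO and 0.25 in WT. Psmg1, its partner, had -0.28 in KO (adjusted p = 0.0485) and -0.23 in WT (adjusted p = 0.0535). Psmg3 had 10.7, 10.2, 10.1, 10.2 and 10.5 CPM in the 5 KO livers given L-AC, against 11.3, 12.5, 11.6, 10.7 and 11.3 CPM in the 5 given saline, a log2 fold change of -0.15 (SE 0.094, adjusted p = 0.187). In WT, Psmg3 had 8.06 to 10.8 CPM with a median of 8.9 in the 6 WT livers given L-AC, against 9.999 to 13.3 CPM with a median of 10.6 in the 7 given saline, a log2 fold change of -0.27 (SE 0.083, adjusted p = 0.00926). Its libraries overlapped in both genotypes. Psmc3ip, which matches by symbol but encodes a partner of a meiotic recombinase, had 14 to 45 reads per library and was not called.

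Genes that act with the proteasome moved in both directions. Of 11 proteasome partners found, 6 were called higher and 2 lower in KO, and 6 higher and 4 lower in WT. The shares of all genes tested were 25.2% higher and 23.6% lower in KO, and 26.6% and 26.7% in WT. The partners with the smallest p in WT were Txnl1, a thioredoxin-like protein bound to the 19S particle (0.65 in KO and 0.50 in WT), the ubiquitin ligase Ube3c (0.46 and 0.49), the proteasome adaptor AI314180, now Ecpas (0.46 and 0.58), and the deubiquitinase Usp14 (0.69 and 0.56). The lower ones, named after their values were seen, were the 19S subunit Shfm1 (Sem1) and the deubiquitinase Uchl5 in both genotypes, with the core maturation factor Pomp and the nuclear import factor Akirin2 in WT. Shfm1 had log2 fold changes of -0.24 in KO and -0.36 in WT, opposite in sign to the 17 genes of the 19S particle among the members. The 19S ubiquitin receptor Adrm1 (Rpn13) was called higher, at 0.59 in KO and 0.33 in WT.

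Of 13 genes of the NRF1 pathway, 7 were called higher and 2 lower in KO, and 5 higher and 3 lower in WT. Beside them, 25.2% of all genes tested were called higher and 23.6% lower in KO, and 26.6% and 26.7% in WT. Nfe2l1 itself had a log2 fold change of 0.34 (SE 0.11, adjusted p = 0.0118) in KO and 0.26 (SE 0.095, adjusted p = 0.0241) in WT. Nfe2l2, the related factor NRF2, had -0.41 (SE 0.26, adjusted p = 0.198) in KO and -0.50 (SE 0.23, adjusted p = 0.0667) in WT and was not called. Mafk, a small Maf partner of both factors, rose by 1.56 and 1.07, and Nploc4, Ufd1l and Vcp, which form the segregase that extracts proteins from membranes, rose by 0.74, 0.51 and 0.49 in KO and 0.65, 0.44 and 0.38 in WT. Those lower in WT, named after their values were seen, were Syvn1 and Sel1l, of the ligase that degrades proteins of the endoplasmic reticulum, and Mafg. Transcript levels do not measure the processing of the Nfe2l1 protein.

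Between genotypes, 0 of the 47 members were called under L-AC and 0 under saline, where 0.0141% of all genes were called in each comparison. DESeq2 and limma-voom also called 0 members. Under L-AC, 1 member passed an unadjusted p of 0.05, beside 4.53% of all genes. It was the activator Psme4, with 121, 121, 125.5, 137 and 122 CPM in KO livers and 124 to 159 CPM with a median of 141 in WT livers. The ranges overlapped, and the log2 fold change was -0.18 (SE 0.086, unadjusted p = 0.0467). Next in order was Psmg3 at 0.15 (SE 0.09, unadjusted p = 0.117).

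Under saline, 1 member passed an unadjusted p of 0.05, beside 1.86% of all genes. This was Psmd4, at -0.16 in KO against WT (SE 0.076, unadjusted p = 0.0418), and its saline libraries, listed with the L-AC comparison, overlapped between the genotypes. Psmd2, the base scaffold Rpn1, followed with 190.5, 189, 178, 178 and 193 CPM in KO livers and 182 to 226 CPM with a median of 206 in WT livers. The log2 fold change of Psmd2 was -0.16 (SE 0.079, unadjusted p = 0.0508), with overlapping ranges. Psmd2 lies at chr16:20651652-20663414, 1.1 Mb from Ehhadh. All 31 constitutive 26S subunit genes among the members had a negative log2 fold change in KO against WT under saline, from -0.16 to -0.02, where 51.2% of all genes were negative. Under L-AC, 24 of the 31 were positive, where 52.3% of all genes were. None of these differences was called, and genes measured in the same livers are not independent of each other.

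The response to L-AC was also compared between the genotypes. The log2 fold change was larger in KO for 40 of 47 members, beside 54.1% of all genes, whereas the interaction of genotype and treatment was called for 0 members and for 0% of all genes. By DESeq2 and limma-voom it was called for 0 members as well. An unadjusted p of 0.05 was passed by 1 member, beside 2.25% of all genes: Psma7, an alpha subunit, with an interaction of 0.22 (SE 0.098, unadjusted p = 0.0373). Psma7 had 163, 163, 145, 150.3 and 142 CPM in the 5 KO livers given L-AC, against 111, 104, 102.5, 102 and 109.7 CPM in the 5 given saline. In WT, Psma7 had 126 to 155 CPM with a median of 146 in the 6 WT livers given L-AC, against 101 to 124 CPM with a median of 114 in the 7 given saline. The treatments did not overlap in either genotype. The next smallest p was that of the ATPase Psmc2, at 0.19 (SE 0.098, unadjusted p = 0.0616). No member was thus shown to respond differently by genotype.

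**Figure D4:**
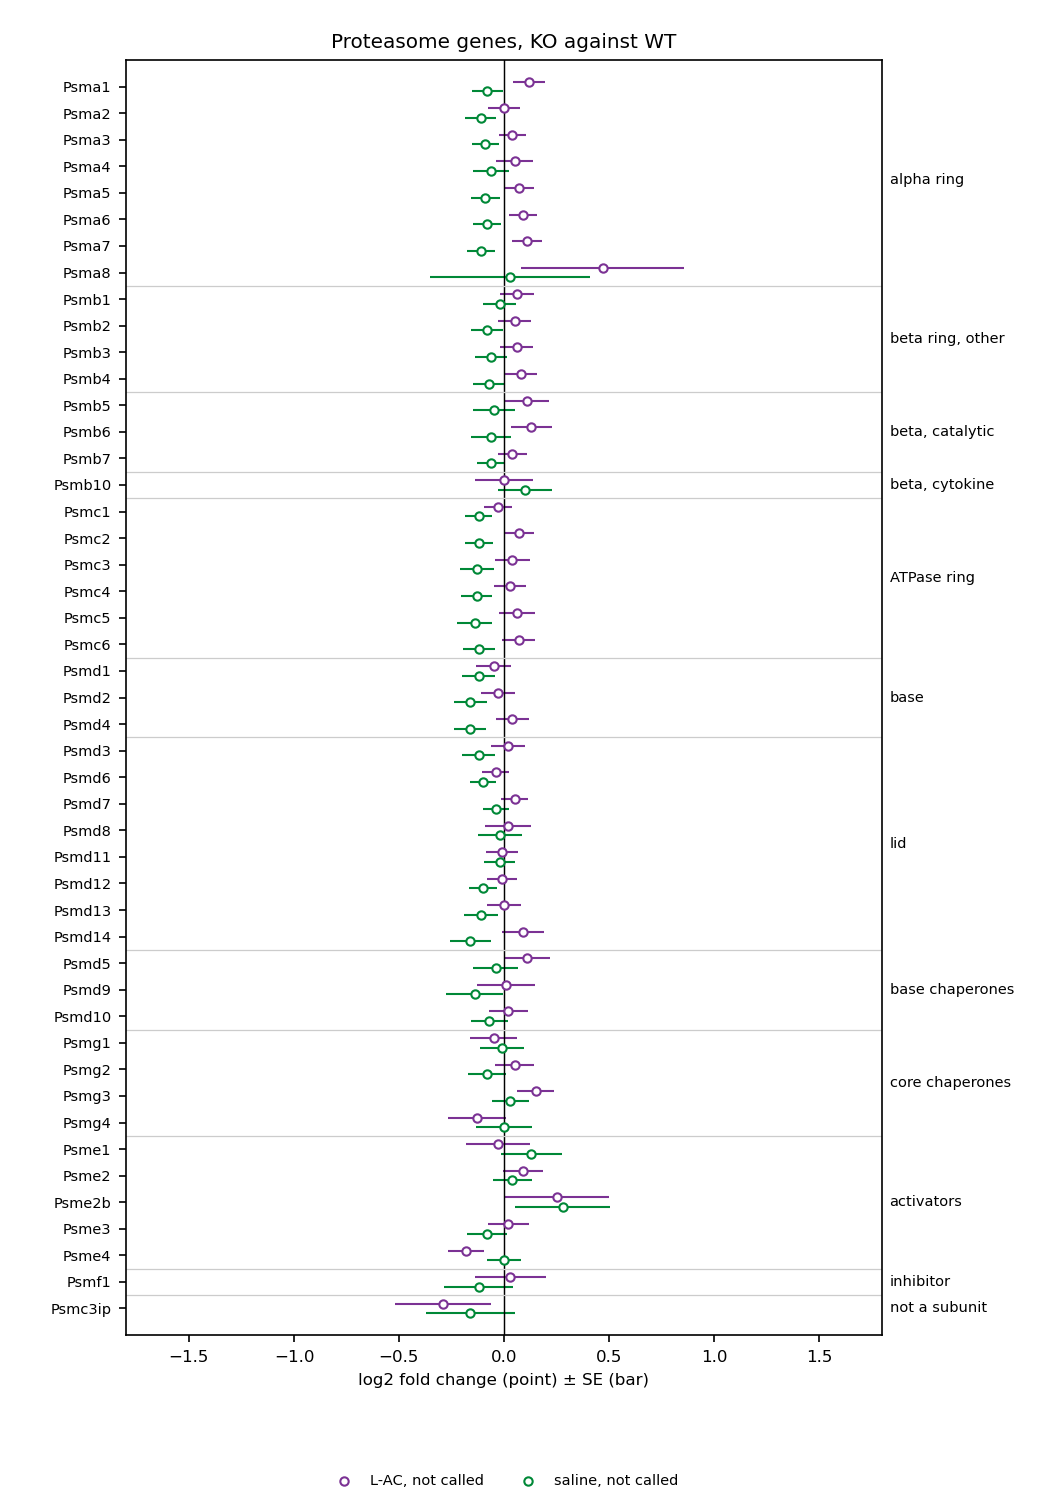
Log2 fold change of KO against WT for each of the 47 members (points) with its SE (bars), under L-AC and under saline, grouped by role and drawn on the same scale as the plot of L-AC against saline. No point passed an adjusted p of 0.05, and the 26S subunits lie left of 0 under saline, from -0.16 to -0.02.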

How the data were processed

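Liver polyA RNA of 23 mice was sequenced single-end, per the labels' protocols. Reads were aligned with STAR 2.4.0 to mm10, per the submitters' processing notes. The deposited values are raw counts, made by the authors with featureCounts 1.4.4 on UCSC mm10 exons grouped by gene, with primary alignments, ignoring strand and letting a read count for each overlapping gene, per the file headers. Reads over the exon bases that 5 members share with another gene were therefore counted for both genes. Separately, reads from near-identical copies can be counted for either gene. Each library is 1 animal, with no batch in the labels. Replicates are numbered in accession order. All 56 replicate pairs differed beyond sampling noise (lowest chi-square per degree of freedom 44.05).

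Genes were kept by filterByExpr of edgeR (minimum count 10, minimum total 15), which left 14196 genes, all 47 members among them. TMM scaling and a quasi-likelihood fit of 1 mean per group over the 23 libraries followed (edgeR 4.0.16, R 4.3.3). Tests were two-sided, with Benjamini-Hochberg adjustment over all genes tested. SE is the size of a log2 fold change divided by the square root of F. RPKM divide CPM by the exon length in kilobases. Depth limits Psma8, Psmc3ip and Psme2b most. The fit was tested on simulated counts.

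The members and gene lists were chosen with earlier results of these data known. Values are given in every KO library, and as the lowest, median and highest in the larger WT groups, for the catalytic genes and Psmb10, for the 4 called members with the smallest p in each direction of each L-AC comparison, and otherwise for the 2 with the smallest p. From each list, up to 4 called genes with the smallest p in WT are named, besides Nfe2l1, Nfe2l2, Psmb8 and Psmb9. Paaf1 had no match in the partner list, and 1 gene of the inducible list is not reported here. Alternatives were the size factors of DESeq2, DESeq2 1.42.0, limma-voom (limma 3.58.1), no filter, 1 CPM in 5 libraries, age as a covariate, a fit of the compared groups alone, a stricter threshold of adjusted p (0.01) and each library left out. The macrophage markers without KO L-AC replicate 3 were added after seeing the data.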

Additional observations from a re-analysis of the deposited data

Results flagged for a closer look

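Of 76 checks of a group for a library far from the others, 3 stood out, and chance gives about 1 in 20. Psmd4 in WT livers given L-AC was low in replicate 3, at 228.8 CPM, where the others had 276.2 to 297.6 CPM. Psmd11 in WT livers given saline was low in replicate 3, at 85.89 CPM, where the others had 101.9 to 110.9 CPM. Psme4 in KO livers given L-AC was high in replicate 4, at 137.4 CPM, where the others had 120.6 to 125.5 CPM.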

How the results depend on the processing

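With each library left out in turn, 28 to 34 members were called higher and 5 to 6 lower in WT with L-AC, and 32 in each case higher and 4 to 5 lower in KO. Over the other alternatives the counts were 25 (adjusted p under 0.01) to 33 higher and 5 to 6 lower in WT, and 32 to 33 higher and 4 to 5 lower in KO. In WT, 25 of the 32 higher and 5 of the 5 lower members kept their call under all 31 settings; in KO, 32 of 32 and 4 of 5 did. Those that lost it in WT were Psma1, Psma2, Psma3, Psma6, Psmc3, Psmd13 and Psmg2, and in KO Psmg1. Members called between genotypes or for the interaction stayed at 0 throughout; the interaction was not run on only the groups compared, since it uses all 4. Of 928 values of single members under an alternative, 927 kept their direction and side of the threshold. The log2 fold change of Psmb6 in KO, 0.03 over all libraries, was -0.07 without KO L-AC replicate 2. Over all 31 settings it ranged from -0.07 to 0.09, and the cause was not tested. No paired analysis was run, since each library came from a different mouse, given either L-AC or saline.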

Other observations

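Other genes of ubiquitin handling and protein folding were measured in the same comparisons. Across all genes tested, 25.2% were called higher and 23.6% lower with L-AC in KO, and 26.6% and 26.7% in WT. Of 6 ubiquitin and E1 genes, 1 was called higher and 0 lower with L-AC in KO, and 3 were higher and 1 lower in WT. The polyubiquitin gene Ubb had a log2 fold change of 0.60 in KO and 0.49 in WT. Of 5 shuttle genes, which carry ubiquitin-tagged proteins to the proteasome, 3 were higher in each genotype (Rad23b, Ubqln1 and Ubqln2). Of 12 heat shock genes, 2 were higher in each genotype, Hspa8 and Hspd1, with 1 lower in KO and 2 lower in WT. The lower ones, named after their values were seen, were Hspa1b in KO and Hsph1 and Dnajb1 in WT. In both directions the heat shock counts lay below the shares of all genes.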
